A study of Homo sapiens with 14 samples.

Results

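The RAB GTPases are a family of small GTPases, and 61 of their genes were represented in a pooled CRISPR interference screen that sorted cells by the remaining signal of an opioid receptor. Members were taken by name: a guide belonged to the family when its gene symbol was RAB followed by a number and at most a letter and a further digit. This gave 155 guides for 31 genes in the 6 sublibraries that could be compared, out of 91463 guides in all, and 155 guides for 30 other genes in sublibrary H4. The RABs of H4, RAB5C among them, have counts from the dim cells alone, since the table of bright cells for H4 held 35 complete guides and no RAB guide.

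RAB proteins cycle between a GTP-bound form on a membrane and a GDP-bound form in the cytosol, and each marks particular compartments. Guanine nucleotide exchange factors (GEFs) load GTP, GTPase-activating proteins (GAPs) end the active state, and effectors read it to tether, move or fuse vesicles. RAB5 proteins act on early endosomes, RAB7A on late endosomes and lysosomes, RAB4 and RAB11 proteins on recycling routes, and RAB1, RAB2 and RAB6 proteins between the endoplasmic reticulum and the Golgi. A receptor taken up after agonist passes some of these compartments on its way to lysosomes or back to the surface.

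The cells were HEK293 FLP-In, a human embryonic kidney line with a docking site for transgenes. All of them carried the delta opioid receptor fused to the peroxidase APEX2 and the repressor dCas9-KRAB with BFP, in populations expanded from clones. Guides were delivered at a multiplicity of about 0.2, carriers were selected over 3 days with puromycin at 0.75 µg/ml, and the assay followed after 8 days of growth. Every group received DADLE, a peptide agonist of opioid receptors, at 10 µM over 90 minutes. APEX2 then turned Amplex UltraRed (100 µM) into a fluorescent product in a reaction started by hydrogen peroxide (50 µM) and stopped after 1 minute. The groups were the brightest quartile (top) and the dimmest quartile (bottom) of each of 7 sublibraries, H1 to H7, with 1 library in each group.

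The libraries used here include no repeated sort and no unstimulated cells, and guide counts hold no expression, so neither the repression of a RAB nor the identity of the cells can be read from them. The 12 compared libraries held 18054418 to 34636612 counts, and RABs were found in H1 (4 genes), H2 (8), H3 (17) and H7 (2). A guide's value is log2(top/bottom) of its share of counts, set to 0 at the sublibrary's median over non-targeting guides. Positive values thus mean more carriers among bright cells. Genes are summarised by the mean ± SD of their 5 guides. Guides of a gene share libraries and target, so they are not replicates of a sort. A gene is called when its mean lies apart from means of non-targeting guides in a permutation test, at an adjusted p under 0.05 over all targets. Non-targeting guides had an SD of 0.265 in H1, 0.24 in H2, 0.215 in H3 and 0.333 in H7, where counting alone would give 0.0625, 0.0546, 0.0565 and 0.0846.

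Guides act near the start of a gene. The count tables name each guide by a strand and a position but hold no guide sequence, and the sources used here do not give the genome build of those positions. The 250 bases upstream of the RefSeq start (GRCh38.p14) are therefore shown for RAB7A at chr3:128725933-128726182, RAB9A at chrX:13688878-13689127 and RAB10 at chr2:26033834-26034083, the called members with a single listed start. All lie on the plus strand and are written 5′ to 3′. Capitals mark GG, the fixed bases of the NGG motif beside which Cas9 guides of the same strand bind, and CC, the same motif on the other strand, with overlapping matches included. A GG that opens a window or a CC that closes it is also in capitals. The remaining base of such a motif lies outside the window, so it is not counted below.
RAB7A: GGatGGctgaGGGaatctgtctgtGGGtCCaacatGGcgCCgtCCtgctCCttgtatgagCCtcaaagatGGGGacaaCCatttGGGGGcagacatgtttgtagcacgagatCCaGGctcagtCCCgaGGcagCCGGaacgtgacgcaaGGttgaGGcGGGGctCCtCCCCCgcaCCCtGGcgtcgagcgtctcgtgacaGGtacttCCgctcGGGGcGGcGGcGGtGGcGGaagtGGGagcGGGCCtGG
RAB9A: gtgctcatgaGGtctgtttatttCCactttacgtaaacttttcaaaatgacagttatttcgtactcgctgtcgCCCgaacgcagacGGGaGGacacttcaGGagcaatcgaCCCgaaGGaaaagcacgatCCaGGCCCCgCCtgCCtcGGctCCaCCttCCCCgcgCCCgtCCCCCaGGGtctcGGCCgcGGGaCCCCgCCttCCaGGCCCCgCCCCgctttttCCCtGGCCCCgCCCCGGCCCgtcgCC
RAB10: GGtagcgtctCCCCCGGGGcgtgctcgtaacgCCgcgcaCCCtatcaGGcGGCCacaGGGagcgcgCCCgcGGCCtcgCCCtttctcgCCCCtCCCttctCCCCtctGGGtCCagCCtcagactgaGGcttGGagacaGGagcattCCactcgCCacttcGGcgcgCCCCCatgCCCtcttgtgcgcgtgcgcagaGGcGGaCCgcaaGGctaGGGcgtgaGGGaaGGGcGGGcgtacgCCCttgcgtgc

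The motif occurs 55 times upstream of RAB7A, 60 times upstream of RAB9A and 59 times upstream of RAB10, counting both strands. Of the 35116 upstream windows of the RefSeq table, 100.0% hold it and the median is 48, so these starts offer many possible sites. The guides were not placed on these windows. RAB43 has 4 overlapping windows with 68 to 87 occurrences, and RAB40A, with 16, has the fewest among the 24 of 31 compared RAB genes with a window.

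The permutation test called 4 RABs higher in bright cells, beside 2.35% of all targets. They were RAB7A of late endosomes, RAB9A of late endosome to Golgi transport, RAB10 of delivery to the surface and RAB43 of the Golgi. The median over guides and edgeR called RAB9A alone, and removal of the farthest guide of each target left 0 calls among RABs. The largest mean, that of RAB7A, was 1.00 and the other called means lay between 0.33 and 0.56. The other 27 RABs stayed within 0.26 of 0. All 155 guides passed the minimum of 50 counts in either library.

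RAB7A, the RAB of late endosomes and lysosomes that recruits the HOPS tether, was measured in H1. Its guides had 1343, 372, 923, 205 and 519 counts in the bottom library and 5940, 2632, 1423, 313 and 682 in the top library, ordered by position. The first 2, at minus-strand positions 128445050 and 128445053, had log2 ratios of 1.83 and 2.50, a 3.55-fold and a 5.67-fold larger share among bright cells. The other 3 guides had 0.31, 0.29 and 0.08, all below 0.56, the upper end of the range that holds the central 95% of non-targeting guides in H1 (the non-targeting range).

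The mean was 1.00 ± 1.09 (SD, n = 5 guides; permutation adjusted p = 0.00287). Both high RAB7A guides lie 3 bases apart on one strand, so their 20-base sites overlap and they are close to a single test of the gene. Without the guide at 128445053 the mean was 0.63, with a permutation adjusted p of 0.0529. The median over guides, 0.31, did not pass. Nor did the quasi-likelihood test of edgeR, fitted with a block for each guide (1.01, adjusted p = 0.302) or DESeq2 (0.99, adjusted p = 0.319). Whether the overlapping guides act through RAB7A alone was not tested.

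RAB9A, which serves traffic from late endosomes to the trans-Golgi network, was also measured in H1 and had the more even set of guides. In order of position they had 627, 1244, 2415, 960 and 1765 counts in the bottom library and 946, 2320, 4743, 1519 and 4165 in the top library. The log2 ratios were 0.28, 0.58, 0.66, 0.34 and 0.92. All 5 were above 0, and 3 of them, at 13707254, 13707307 and 13707571, lay above the non-targeting range. The mean was 0.56 ± 0.259 (SD, n = 5 guides), a 1.47-fold larger share among bright cells, with a permutation adjusted p of 0.0209. RAB9A passed in 12 of 13 alternative analyses, edgeR and DESeq2 included, and failed in the removal of the farthest guide from every target (0.46, permutation adjusted p = 0.251). Leaving out each guide in turn gave means from 0.46 to 0.63, of which 2 of 5 passed. Its paralogue RAB9B is in H4.

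RAB10, which carries vesicles to the plasma membrane, was measured in H3. Its guides had 1477, 1605, 1639, 1308 and 1254 counts in dim cells and 2009, 2980, 1768, 1864 and 1985 in bright cells. The log2 ratios were 0.25, 0.70, -0.09, 0.31 and 0.47, so 4 guides were above 0 and the one at 26257347 was not. The mean was 0.33 ± 0.289 (SD, n = 5 guides; permutation adjusted p = 0.0401). Without the guide at 26257000 it fell to 0.24 (permutation adjusted p = 0.312). The exact rank sum test gave an adjusted p of 0.156 and edgeR 0.255.

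RAB43, which acts at the Golgi, was measured in H3 as well. Its guides were evenly represented in dim cells, at 1493, 1441, 1508, 1529 and 1353 counts, and had 3037, 1910, 1898, 1958 and 1974 in bright cells. All 5 guides were above 0, at 0.83, 0.21, 0.14, 0.16 and 0.35, but only the first, at 128840012, exceeded the non-targeting range of H3, whose upper end was 0.40. The mean was 0.34 ± 0.287 (SD, n = 5 guides; permutation adjusted p = 0.0422). Without that guide it was 0.21, with a permutation adjusted p of 0.399, and edgeR's adjusted p with all guides was 0.226. The guides spanned 725 bases, the second widest spread among compared RABs after the 1206 bases of RAB3C.

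Of the 31 RABs, 4 (12.9%) were called higher in the top library, where 2.35% of all 18116 targets were. The called RABs come from H1, where 1.84% of targets were called higher in the top library, and from H3, where 4.15% were. No RAB was called higher in the bottom library by the permutation test, against 1.53% of all targets, and none of 13 alternatives called any. There 1 RAB had an unadjusted permutation p under 0.05. In either direction 5 of 31 RABs had one, as did 2229 of all 18116 targets. After adjustment, 3.89% of targets passed in either direction.

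The number of called RABs moved with the analysis. The exact rank sum test called 3 RABs (RAB7A, RAB9A and RAB43) and 1.59% of all targets higher in the top library. DESeq2, run on the 17071 targets with 5 guides, also called 3 (RAB9A, RAB10 and RAB43) and 2.14% of those targets. The median over guides called RAB9A and 1.99% of all targets, and edgeR called RAB9A and 0.902% of the 17071 targets with 5 guides. With the farthest guide of each target left out, but no non-targeting guide, 0 RABs and 1.12% of targets were called. The median over the 31 RABs was 0.05, beside 0.01 over all targets. Means were above 0 for 19 RABs (61.3%) and for 52.4% of all targets.

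Single guides, the values from which the genes were called, were counted as well. Of the 155 RAB guides, 13 (8.39%) lay above the non-targeting range of their sublibrary, beside 4.64% of all 89469 guides. Among the 13 is a RAB25 guide with 36 counts in dim and 88 in bright cells, which passed the count filter through the bright library alone. The 4 called genes held 8 of the 13 guides, and among the other 135 RAB guides the share was 3.7%. The genes were called from these same values, so this split is not separate support. The 4.64% still includes guides of called targets. Below the range lay 5 RAB guides (3.23%), beside 4.28% of all guides. All 5 guides were above 0 for 3 RABs (RAB7A, RAB9A and RAB43), as for 5.89% of targets with 5 guides. They were all below 0 for 3 others (RAB40B, RAB39A and RAB40C), as for 4.65%.

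Among RABs of late endosomes, lysosomes and related organelles, 7 of 10 genes were compared, 2 of them (RAB7A and RAB9A) were called, and the median was 0.09. Over all targets 2.35% were called higher in the top library, and 1.84% in H1, where RAB7A and RAB9A lie. The role groups here and below were drawn up with earlier results of these data known. RAB32, of lysosome-related organelles, averaged 0.12 ± 0.253 (SD, n = 5 guides); its guides ranged from -0.21 to 0.44. RAB38, its close relative in melanosome formation, had -0.13 ± 0.324, with 3 guides above 0 and 2 below. RAB7L1, now named RAB29 and known as a partner of the kinase LRRK2, had 0.09 ± 0.13, with guides from -0.12 to 0.20. It shares a number with RAB7A but stayed within the non-targeting range. RAB24, linked to autophagy, had 0.06 and RAB12, linked to lysosomal sorting of receptors, had -0.03. Guides of RAB24 lie as close as 121 bases to those of PRELID1, and whether they also repress it was not tested.

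RAB11A, the RAB of recycling endosomes, was measured in H2 and did not separate bright from dim cells. Its guides had 2370, 3899, 1025, 981 and 2169 counts in the bottom library and 3090, 5259, 1405, 953 and 3476 in the top library, with log2 ratios of 0.04, 0.09, 0.11, -0.39 and 0.33. All lay inside the non-targeting range of H2, -0.41 to 0.50. The mean was 0.04 ± 0.263 (SD, n = 5 guides; permutation adjusted p = 0.958). Whether these guides lowered RAB11A is unknown here, so the value does not show that RAB11A has no part in the signal.

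In the recycling and surface group, 8 of 13 genes were compared, RAB10 alone was called, and the median was 0.04. Over all targets 2.35% were called higher in the top library, and 4.15% in H3, where RAB10 lies. RAB25, the epithelial relative of RAB11A, had 0.18 ± 0.462, and its highest guide, at 0.92, rested on 36 counts in dim and 88 in bright cells. That guide passed the count filter through the bright library alone, and with a minimum of 200 counts the mean was -0.01. RAB35, of fast recycling, had 0.12 ± 0.204, and 1 of its guides, at 0.47, exceeded the non-targeting range. RAB14, between endosomes and the Golgi, had 0.05, and RAB15, of endocytic recycling, had -0.10. RAB8A and RAB8B, which act with RAB10 in delivery to the surface, had means on the other side of 0, -0.14 ± 0.393 and -0.08 ± 0.322. Neither passed, and their guides ranged from -0.57 to 0.48 and from -0.59 to 0.22.

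Early endosome RABs were mostly in H4, and RAB5A was the 1 of 7 that could be compared. RAB5A, which drives early endosome fusion, had a mean of 0.06 ± 0.149 (SD, n = 5 guides), with guides from -0.15 to 0.23. Its nearest guide lies 188 bases from one of EFHB, which had a mean of 0.20. RAB5B and RAB5C, its close paralogues, RAB21, RAB22A, RAB31 and RAB20 have abundance in dim cells only.

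In the endoplasmic reticulum and Golgi group, 5 of 14 genes were compared, RAB43 was called, and all 5 means were above 0, with a median of 0.13. Over all targets 2.35% were called higher in the top library, and 4.15% in H3, where RAB43 lies. Means were above 0 for 52.4% of all targets, and the value of RAB33A, 0.01, changed sign in some alternatives. RAB1A, which serves transport from the endoplasmic reticulum to the Golgi, had 0.16 ± 0.187 (SD, n = 5 guides) and 4 guides above 0. RAB18, of the endoplasmic reticulum and lipid droplets, had 0.13 ± 0.298, and its highest guide, 0.61, had 363 counts in dim and 636 in bright cells. RAB30 and RAB33A, both of the Golgi, had 0.08 and 0.01. None of these 4 passed the permutation test.

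No RAB of regulated secretion was called among the 3 of 8 compared, and their median was 0.05. Of all targets, 2.35% were called higher in the top library and 1.53% higher in the bottom library. RAB3D, of secretory granules, had 0.16 ± 0.236 (SD, n = 5 guides), its relative RAB3C had 0.05, and RAB37, of granule release, had -0.05.

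The remaining compared RABs, 7 of 9 genes, had the lowest median, -0.16, and no call. RAB40B and RAB40C belong to a branch that acts as substrate receptors of CUL5 ubiquitin ligases. RAB40C had the lowest mean of the family: its guides spanned -0.64 to -0.07, and the mean was -0.26 ± 0.233 (SD, n = 5 guides; permutation p = 0.0102, adjusted p = 0.157). RAB40B had -0.16 ± 0.167, and RAB40A, of the same branch, had 0.04 ± 0.155, with 3 guides above 0. RAB39A, linked to endosomes and phagosomes, had -0.21 ± 0.194 in H7, and RAB44, an unusually large member found mainly in blood cells, had -0.19 ± 0.235 there. Their permutation p-values before adjustment were 0.151 and 0.182. RAB42 had -0.10, and RAB23, a regulator of Hedgehog signalling, had -0.02.

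The values of neighbouring guides show how far a single guide can be read. Among compared RAB guides, 22 pairs in 16 genes lie on the same strand less than 20 bases apart, so that their sites overlap. Their log2 ratios differed by a median of 0.37, with a range of 0.02 to 0.96. The pair of RAB7A differed by 0.67 and both were far above 0. The widest difference, in RAB25, includes the guide with 36 counts in dim cells.

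Counts in the dim cells also give the abundance of guides. It carries growth before the assay, the make-up of the plasmid pool and the sort into dim cells together. These cannot be told apart without counts of the starting pool and of unsorted cells. Abundance is log2 of the median bottom count of a gene over the non-targeting median of its sublibrary. RAB7A was the lowest of all RABs at -1.73, at the 0.665th percentile of targets in H1. Its sum over both libraries was -0.70, at the 11.9th percentile. The bottom counts enter both its abundance and its ratio. The next lowest were RAB34 (-0.85), RAB20 (-0.78), RAB35 (-0.77), RAB26 (-0.75) and RAB40A (-0.70), and the highest was RAB2B (0.83). Between the mean ratio and the summed abundance of 31 RABs, which share counts, Pearson's r was -0.35 and Spearman's rho was -0.36. Without RAB7A and RAB9A they were -0.21 and -0.31.

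The 30 RABs of H4 had a median abundance of -0.18 in dim cells, with 4 of 31 targets under the 10th percentile of H4. The 31 compared RABs had -0.09, with 5 of 31 under the 10th percentile of their own sublibraries. RAB5C has separate guides for 2 starts. Those of P1 had 659 to 1070 counts (median 930; abundance -0.55), all at or below 1070, and those of P2 had 937 to 2021 (median 1598; abundance 0.23), so the ranges overlapped. Without a bright library the part of the sort in these values cannot be told apart, so they are not read as receptor signal. RAB11B, the paralogue of RAB11A, had an abundance of -0.28, with 1 guide at 42 counts.

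A few H4 guides were also counted under another name elsewhere. All 5 guides of RAB4B, a RAB of fast recycling, have the same positions as those listed for EGLN2 in H1 and for MIA in H7. There they had means of 0.04 ± 0.286 and -0.03 ± 0.442 (SD, n = 5 guides), with ranges of -0.27 to 0.47 and -0.52 to 0.48. For RAB34, 3 guides are listed for NARR in H7, with a mean of 0.03 ± 0.112. These were not called in either sublibrary.

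Proteins that prenylate, load, switch off and read RABs were examined from lists of 157 genes, to be read against 2.35% of all targets called toward bright and 1.53% toward dim cells. The lists were drawn up with earlier results of these data known, so their counts of calls are not separate support. Of 8 genes for prenylation and membrane recycling, 1 was called toward bright cells and 0 toward dim cells, with a median of 0.04 over 9 targets. RABGGTA, the alpha subunit of the transferase that attaches geranylgeranyl groups to RABs, had guides at 0.12, -0.21, 0.38, 0.95 and 2.47. Its mean was 0.74 ± 1.05 (SD, n = 5 guides; permutation adjusted p = 0.0177), with 1 guide at 288 counts in dim and 1990 in bright cells. It passed in 7 of 13 alternatives, and not with the median, without the farthest guide, or in the rank sum, DESeq2 and edgeR tests. Its partner subunit RABGGTB had -0.00, with guides from -0.25 to 0.66. GDI2, a GDP dissociation inhibitor that draws RABs off membranes, had 0.18 at its first start, and CHML, an escort protein for prenylation, had -0.06. None of these passed.

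Of 52 GEF genes, 43 were compared in 45 targets, and the median was 0.05. Toward bright cells 2 were called and toward dim cells 1, beside 2.35% and 1.53% of all targets. GAPVD1, a RAB5 exchange factor, had guides at 0.84, 1.04, 1.06, 1.10 and -0.03, and a mean of 0.80 ± 0.473 (SD, n = 5 guides; permutation adjusted p = 0.000659, from 1e-05, the smallest p that 100000 draws can give). It passed in 13 of 13 alternatives. The 4 high guides of GAPVD1 lie within 37 bases, and the guide that lies apart was at -0.03. RABGEF1, known as Rabexin-5 and also a RAB5 exchange factor, had 0.42 ± 0.248 with all guides above 0 (permutation adjusted p = 0.00287). RABGEF1 passed in 11 of 13 alternatives. The call was lost without the farthest guide and without guides listed under more than 1 target. The guides of RABGEF1 are listed for KCTD7 too, so the value belongs to either gene. ANKRD27, an exchange factor for RAB21, was lower in bright cells at -0.32 ± 0.188 with all guides below 0 (permutation adjusted p = 0.0454). ANKRD27 passed in 8 of 13 alternatives, and not with the median, without the farthest guide, or in the rank sum test and edgeR with either scaling. TRAPPC3, a core TRAPP subunit acting on RAB1, had 0.35 ± 0.408 and did not pass. MON1A, MON1B, CCZ1 and CCZ1B, subunits of the RAB7A exchange factor, had 0.09, 0.19, 0.14 and -0.13 and did not pass; they were picked out after their values were seen.

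Of 40 GAP genes, 36 were compared, and the median was -0.05. By the permutation test 0 were called toward bright cells and 1 toward dim cells, beside 2.35% and 1.53% of all targets. RABGAP1, a GAP that binds RAB6, had 5 guides between -0.57 and -0.26 and a mean of -0.43 ± 0.112 (SD, n = 5 guides; permutation adjusted p = 0.00361). It passed in 10 of 13 alternatives, and not with the median, without the farthest guide or in edgeR scaled on non-targeting guides. Its SD was the smallest among the called genes named here. TBC1D16 had 0.50 ± 1.17, TBC1D14 had -0.44 ± 0.751 and TBC1D20, a RAB1 GAP, had 0.29 ± 0.163. None of these passed, although TBC1D20 passed in 3 of 13 alternatives. The unadjusted permutation p was under 0.05 for 2 GAPs with positive means and 3 with negative means, RABGAP1 and TBC1D14 among the latter. Over all 18116 targets it was under 0.05 for 2229, in either direction. TBC1D16 and TBC1D14 had guides on both sides of 0. TBC1D16, among the GAPs with positive means, had a guide with 36 counts in dim cells. All TBC1D16 guides had at least 149 in bright cells, so that guide passed the count filter through the bright library alone.

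Of 57 effector genes, 35 were compared in 38 targets, and the median was -0.00. The permutation test called 3 toward bright cells and 0 toward dim cells, beside 2.35% and 1.53% of all targets. Before adjustment, 3 effector targets had positive and 3 negative means with a permutation p under 0.05, beside 2229 of all 18116 targets in either direction. An alternative called at most 1 of the list toward dim cells. WDR91, which binds RAB7 and acts in the change from early to late endosomes, had the largest value of the family and its partners. Its guides were at 0.69, 1.00, 1.17, 1.57 and 2.59, with 1784, 1072, 787, 992 and 362 counts in dim and 3656, 2733, 2252, 3755 and 2785 in bright cells. The mean was 1.41 ± 0.737 (SD, n = 5 guides; permutation adjusted p = 0.000659), and it passed in 13 of 13 alternatives. RABEP1, known as Rabaptin-5, is a RAB5 effector that binds Rabexin-5. Its guides were at 0.81, 0.89, -0.00, 0.58 and 0.44, with a mean of 0.54 ± 0.354 (permutation adjusted p = 0.000659). RABEP1 passed in 11 of 13 alternatives, and not in edgeR with either scaling. PLEKHM1, a RAB7 effector at lysosomes, had 0.81 ± 1.24 (permutation adjusted p = 0.0159), but its highest guide, 2.49, had 16 counts in dim and 97 in bright cells and so passed the count filter through the bright library alone. The call held in 4 of 13 alternatives and was lost with a minimum of 200 counts. EEA1, the RAB5 tether of early endosomes, had -0.32 ± 0.209 and did not pass.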

How the data were processed

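The deposited tables give raw counts of reads per guide, made by the authors with Bowtie among the tools in the submitters' processing notes; the sources used here do not give its version, its settings or the genome build. Gene names were read from guide names, and the RAB members, roles and partner lists were chosen with earlier results of these data known. No count table gave a second library of any group, so p-values measure the spread among guides and not among sorts.

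For each guide, 1 was added to both counts and each was divided by its library total. The log2 ratio was centred on the median of all non-targeting guides of the sublibrary. Guides needed 50 counts in either library (375 were left out). After this filter 241 to 308 non-targeting guides per compared sublibrary remained for the test. A target was a gene symbol and start with at least 3 guides; 17071 had 5 guides, 975 had 4 and 70 had 3. Its mean was tested with a two-sided permutation test, in which 100000 sets of as many guides were drawn from its own and the non-targeting guides, and p-values were adjusted by Benjamini-Hochberg over 18116 targets (threshold 0.05). With 1 library per group, edgeR 4.0.16 and DESeq2 1.42.0 have no residual degrees of freedom between libraries, so they were run on the counts with guides as blocks, as alternatives. The scripts were tested on simulated data. Python 3.11.15, numpy 2.4.6, pandas 2.3.3, scipy 1.17.1 and R 4.3.3 were used.

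Genes named are RAB7A, RAB5C, RAB10 and RAB11A, the called RABs and their paralogues of the same number, the 10 highest and 10 lowest RABs, and in each partner list the called members and the 4 farthest from 0; the remaining RABs are given by their means. A member of the partner lists that the rule names is not reported here. The positions in guide names were not placed on the RefSeq windows (GRCh38.p14), because their build is not stated. The 13 alternatives changed the pseudocount (10), the filter (none or 200 counts), the centre, the summary of guides, the guides and starts used, the test and the adjustment. Leaving out each guide of the 4 called RABs was added after the data were seen. The H4 table of bright cells, with 70718 counts and an unfinished last line, was not used.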

Additional observations from a re-analysis of the deposited data

How the results depend on the processing

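The 4 called RABs kept a positive value in all 13 alternatives, but sizes and calls moved: RAB7A went from 1.00 to 0.31 with the median and 0.63 without the farthest guide, and RAB43 from 0.34 to 0.21 in both. Against 4 RAB calls, the median over guides gave 1, removal of the farthest guide of each target gave 0, and edgeR gave 1 with either scaling. Calls over all 18116 targets, 704 in the main analysis, were 312 without the farthest guide; edgeR, run on the 17071 targets with 5 guides, gave 257 with TMM factors and 254 scaled on non-targeting guides. Partner calls higher in the top library, 6 in the main analysis, were 3 in each of these settings. Those higher in the bottom library, 2 in the main analysis, were 1 with TMM factors, 0 with edgeR scaled on non-targeting guides, and likewise 0 without the farthest guide or with the median. The cause of these changes was not tested. Removal of the farthest guide left fewer guides per target and took none from the non-targeting guides. Means that changed sign were all near 0 and none was called. RAB25 gave -0.01 at 200 counts, -0.04 with the median and -0.01 without the farthest guide. RAB24 gave -0.01 without that guide, and RAB14 gave -0.05 with the median and -0.01 without the guide. RAB33A gave -0.00 centred on all guides, -0.06 as a median, -0.01 with both DESeq2 and edgeR's TMM factors, and -0.05 once its farthest guide was removed. RAB8B gave 0.05 without the farthest guide, and RAB38 gave 0.01 with the median. Leaving out each guide in turn, added after the data were seen, gave means from 0.63 to 1.23 for RAB7A (4 of 5 past the threshold), 0.46 to 0.63 for RAB9A (2 of 5), 0.21 to 0.39 for RAB43 (3 of 5) and 0.24 to 0.43 for RAB10 (1 of 5). With 1 library per group, no library could be left out. No paired analysis was possible because each group has 1 library and the labels give no replicate numbers; top and bottom were compared within each sublibrary throughout. Intervals between sorts cannot be had from these counts.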
